A study of Homo sapiens with 6 samples.

Results

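DHRS2 and 7 further genes named DHRS (dehydrogenase/reductase, short-chain) were followed in RNA-seq libraries of cells labelled as osteosarcoma and treated with ailanthone. The members were DHRS2, DHRS1, DHRS3, DHRS4, DHRS7, DHRS7B, DHRS11 and DHRS13, taken by symbol from a table of 13439 genes, and all 8 were present in it. They were chosen by their levels in the same AIL and DMSO libraries, above all the high AIL level of DHRS2, so their own values are given as a description and without a test. The AIL group was cells labelled Saos-2, a long-established osteosarcoma line of human origin, kept for 24 h in 0.20 µM ailanthone, a quassinoid, and the DMSO group was the same line kept for 24 h in the solvent. Each group had 3 replicates that the labels call biological without saying how the cultures were separated, so the spread given here is that between these libraries.

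Short-chain dehydrogenases/reductases are a large enzyme superfamily that uses NADH or NADPH to reduce carbonyl groups or oxidise alcohols on steroids, retinoids, fatty acids and foreign compounds. Within it the DHRS genes encode enzymes of the cytosol, the endoplasmic reticulum, the peroxisome and the mitochondrion. DHRS2, also called HEP27, encodes a reductase of dicarbonyl compounds found in mitochondria and the nucleus, and its protein was reported to bind the ubiquitin ligase MDM2.

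The libraries held 32540000 to 38050000 reads on the scale of the deposited values, and the first principal component of the tested genes, with 72.4% of the variance, separated the treatments. Markers of the labelled line were checked. Of 12 osteoblast markers, 5 were in the table. RUNX2 was at 4.36 to 5.04 CPM over the 6 libraries, while SPARC, SPP1 and BGLAP stayed at or below 0.28 CPM, and ALPL, SP7, COL1A1, COL1A2, IBSP, BMP2 and DLX5 had no values in the table used here. These low or unlisted markers put the label of the line in question, and it is used below only as the name of the samples. Of 6 markers of blood and endothelial cells, only CDH5 was listed, at 0 to 0.12 CPM. The 13 mitochondrially encoded transcripts, used as a sign of RNA quality, summed to 3600 to 3726 CPM in AIL libraries and 4205 to 4374 CPM in DMSO libraries, with 10 of 13 lower (limma adjusted p under 0.05) where 25.9% of all tested genes were, and their part in the results below was not tested.

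DHRS2 was nearly silent in the solvent and clearly present under AIL. Its level was 7.02, 6.75 and 6.43 CPM (counts per 1e6 reads after TMM scaling by the authors) in the AIL libraries, against 0.55, 0.82 and 0.87 CPM in the DMSO libraries. Every AIL library was far above every DMSO library, and the gap between the groups was wide compared with the spread inside either. The means were 6.73 ± 0.295 CPM under AIL and 0.747 ± 0.172 CPM under DMSO (SD, n = 3 each), a ratio of means of 9.02. All differences below are means of log2(CPM + 1) under AIL less those under DMSO. For DHRS2 this was 2.15 with a standard error of 0.0943, the highest of the 11069 genes that averaged 1 CPM or more over the libraries. DHRS2 passed that minimum through the AIL libraries alone, since its DMSO mean was under 1 CPM. In bulk RNA, more cells with the transcript and more transcript per cell cannot be told apart.

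These levels rest on few reads. The step of 1 read in each library placed DHRS2 at 267, 244 and 231 reads in the AIL libraries and at 18, 27 and 31 reads in the DMSO libraries. The DMSO library with the fewest reads, replicate 1, had an exact 95% Poisson interval of 0.328 to 0.874 CPM, and the AIL library with the fewest, replicate 3, had one of 5.63 to 7.32 CPM. Summed over the groups, 742 reads under AIL and 76 reads under DMSO gave a ratio of 8.99 with an exact 95% interval of 7.09 to 11.5. These intervals cover counting error only. The variance between replicates was 0.475 times that of counting error in AIL libraries and 1.34 times in DMSO libraries, so the replicates of DHRS2 varied about as much as read counting alone.

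The size of the DHRS2 difference depended on the pseudocount, the constant added before the logarithm. It was 3.03 with a pseudocount of 0.1 and 1.03 with a pseudocount of 5, where DHRS2 ranked 3rd from the highest instead of 1st. It ranked 2nd without AIL replicate 2, at 2.15, and 2nd without DMSO replicate 1, at 2.07. The reads of DHRS2 were little exposed to confusion with relatives, as 9 of the 7876 distinct 50-base words of its GENCODE 29 transcripts (0.114%) occurred in transcripts of any other gene on either strand, and none of these was a DHRS gene.

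**Figure D1:**
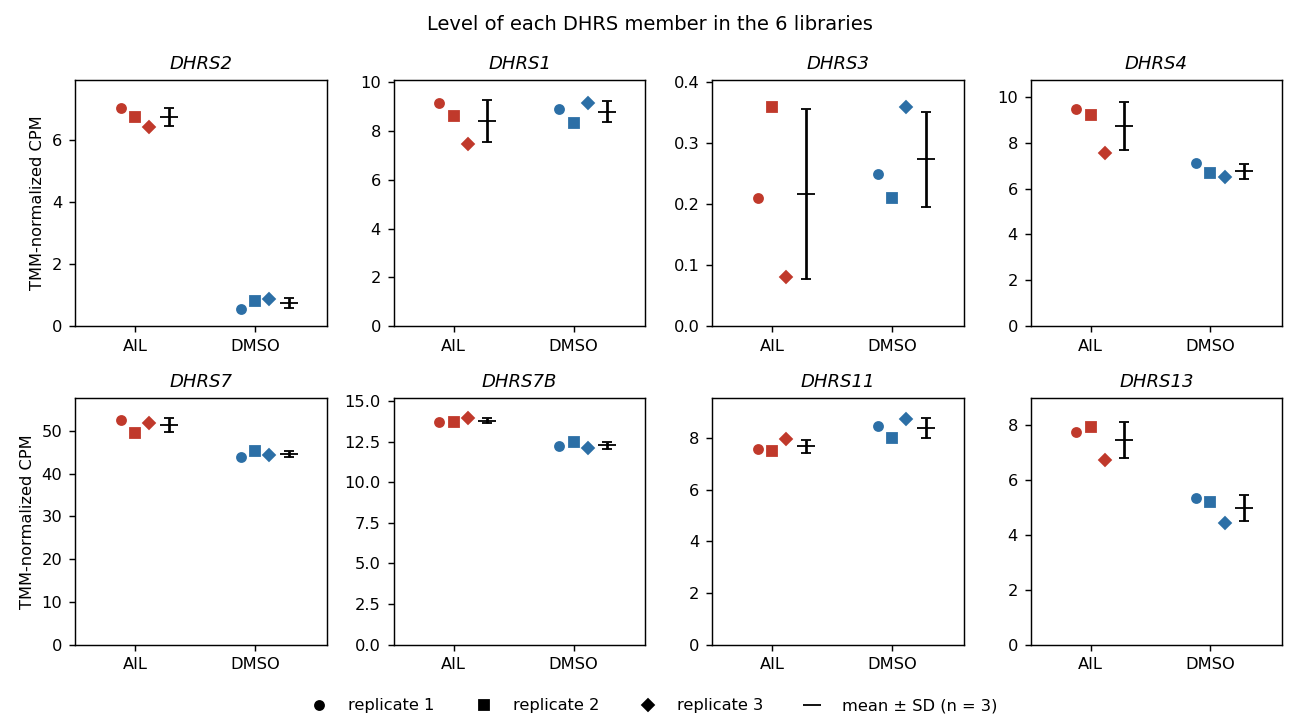
TMM-normalized CPM of each DHRS member in the 3 AIL libraries and the 3 DMSO libraries, with linear axes from 0, a symbol for each replicate and a bar for the mean ± SD of 3. DHRS2 shows the widest separation, 6.43 to 7.02 CPM under AIL and 0.55 to 0.87 CPM under DMSO, while DHRS1 and DHRS3 overlap between the groups.

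The sequence just upstream of DHRS2 had fewer G or C bases and fewer CpG dinucleotides than that of any other member with a window in the table. It is printed with those of the other members that stood furthest above their DMSO level and had a window. The windows are the 250 bases before the annotated start in RefSeq on GRCh38.p14, printed in the direction of transcription, and 7 of the 8 members had 11 such windows between them. Capitals mark matches on either strand to any of 7 motifs. The TATA box was searched as TATAAA, the CCAAT box by its name and the GC box as GGGCGG. The E-box was searched as CACGTG and the AP-1 site as TGANTCA. The core of the antioxidant response element was searched as TGACNNNGC and that of the C/EBP-ATF response element as TGATGNAA. The AP-1 and antioxidant patterns can overlap each other.
DHRS2, chr14:23629865-23630114, plus strand: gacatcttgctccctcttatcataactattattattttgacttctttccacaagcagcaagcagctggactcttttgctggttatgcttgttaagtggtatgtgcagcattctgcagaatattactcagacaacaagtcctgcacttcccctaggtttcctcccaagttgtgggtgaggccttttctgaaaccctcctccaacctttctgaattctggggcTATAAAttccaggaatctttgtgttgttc
DHRS4, chr14:23953520-23953769, plus strand: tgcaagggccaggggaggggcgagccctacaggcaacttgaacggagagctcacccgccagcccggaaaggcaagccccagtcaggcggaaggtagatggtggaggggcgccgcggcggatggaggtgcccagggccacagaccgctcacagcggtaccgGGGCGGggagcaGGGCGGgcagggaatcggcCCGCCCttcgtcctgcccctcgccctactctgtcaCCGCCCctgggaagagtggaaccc
DHRS13, chr17:28903080-28903329, minus strand: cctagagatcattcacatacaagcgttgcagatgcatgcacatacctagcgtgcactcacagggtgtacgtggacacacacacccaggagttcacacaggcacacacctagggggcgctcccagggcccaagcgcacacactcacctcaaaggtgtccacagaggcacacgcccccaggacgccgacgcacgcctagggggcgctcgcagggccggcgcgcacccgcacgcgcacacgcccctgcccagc

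The DHRS2 window held a TATAAA at 29 to 24 bases before the start and no other searched motif. TATAAA occurred in 10.8% of 34943 RefSeq windows of the same length and in no other window of the members. The DHRS2 window had 43.2% G or C bases and 0 CpG dinucleotides, against medians of 58% and 11 over all windows. Of all windows, 19.5% had as low a share of G or C and, counted separately, 6.08% had 0 CpG. Among the members, window 2 of DHRS7B (48.8% G or C, 6 CpG) and window 3 of DHRS3 (54.8%, 3 CpG) came nearest. The DHRS4 window had 70.8% G or C bases, 19 CpG and 4 matches to GGGCGG, a motif found in 42.5% of all windows. The DHRS13 window had 65.2% G or C bases and 19 CpG, and none of the searched letters occurred in it. A match here is a stretch of letters, and nothing was measured of any factor bound to it.

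**Figure D2:**
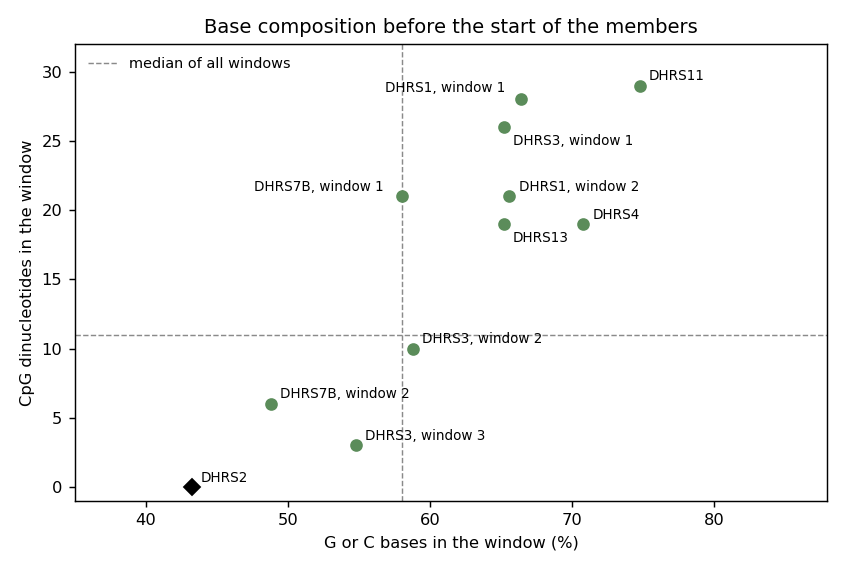
Share of G or C bases (%, horizontal axis) against the number of CpG dinucleotides (vertical axis) in the 250 bases before each annotated start of 7 members, with dashed lines at the medians of all 34943 RefSeq windows. DHRS2, the black diamond, lies at 43.2% and 0 CpG, below the other 10 windows on both axes.

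DHRS13, a gene whose enzyme is little characterised, showed the next largest difference among the members. It was at 7.75, 7.93 and 6.71 CPM under AIL and at 5.32, 5.18 and 4.44 CPM under DMSO. All AIL libraries were above all DMSO libraries, and replicate 3 was the lowest of each group. The means were 7.46 ± 0.659 CPM under AIL and 4.98 ± 0.473 CPM under DMSO (SD, n = 3 each), which is 49.9% higher, and the log2 difference was 0.50 (SE 0.0817). Of its 50-base words, 37.7% occurred on the opposite strand in an antisense transcript annotated over it, and since the use of strand is not given in the sources used here, the reads of the pair cannot be told apart.

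DHRS4 encodes a peroxisomal carbonyl reductase that also acts on retinal. Its level was 9.46, 9.23 and 7.55 CPM in AIL libraries and 7.13, 6.66 and 6.5 CPM in DMSO libraries. The groups did not overlap, but AIL replicate 3 lay close to the highest DMSO library. The means were 8.75 ± 1.04 CPM under AIL and 6.76 ± 0.327 CPM under DMSO (SD, n = 3 each), a log2 difference of 0.32 (SE 0.0792) that was 0.41 without AIL replicate 3. The AIL replicates varied with 4.56 times the variance of counting error and the DMSO replicates with 0.535 times.

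DHRS4 has near-identical copies beside it on chromosome 14, and 48.0% of its 50-base words occurred in another gene, 35.4% in DHRS4L2 and 10.9% on the opposite strand in DHRS4-AS1. DHRS4L2 was at 6.04, 5.70 and 5.18 CPM under AIL and at 3.69, 4.36 and 3.8 CPM under DMSO, and it rose (log2 difference 0.42, SE 0.0825, limma adjusted p = 3.22e-04). The split of reads between the copies is therefore uncertain. The sum of DHRS4 and DHRS4L2 does not depend on the split between them. It was 14.4 ± 1.46 CPM under AIL and 10.7 ± 0.372 CPM under DMSO (SD, n = 3 each). DHRS4 made up 59.3 to 61.8% of it in AIL libraries and 60.4 to 65.9% in DMSO libraries. The sum still depends on the split with other annotated genes. AL136419.1 held 9.59% of the DHRS4 words and 22.5% of the DHRS4L2 words, and DHRS4L1 held 4.18% and 5.38%.

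DHRS7 encodes a reductase of the endoplasmic reticulum that acts on steroids and retinal. It was at 52.62, 49.57 and 51.77 CPM under AIL and at 43.97, 45.37 and 44.32 CPM under DMSO. The groups were separate, with means of 51.3 ± 1.57 CPM under AIL and 44.6 ± 0.729 CPM under DMSO (SD, n = 3 each) and a log2 difference of 0.20 (SE 0.0365). Of its words, 24.3% lay opposite PCNX4, a gene that overlaps it on the other strand.

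DHRS7B encodes a reductase of ether lipid synthesis at the peroxisome and endoplasmic reticulum, known from mouse as PexRAP. Its level was 13.72, 13.69 and 13.95 CPM under AIL and 12.20, 12.50 and 12.11 CPM under DMSO, without overlap. The difference was small and even, 12.4% in the means and 0.16 on the log2 scale (SE 0.0541), and 1.14% of its words occurred in other genes.

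DHRS11, which encodes a cytosolic enzyme acting on steroids at the 17 position, was the member lower under AIL in all 3 libraries. It was at 7.57, 7.52 and 7.96 CPM under AIL and at 8.48, 7.99 and 8.73 CPM under DMSO. The highest AIL library and the lowest DMSO library nearly touched, and the log2 difference was -0.11 (SE 0.0654). DHRS1, an enzyme of the endoplasmic reticulum that reduces steroids and foreign carbonyls, was at 9.15, 8.63 and 7.49 CPM under AIL and at 8.91, 8.32 and 9.15 CPM under DMSO. The groups overlapped, and the log2 difference of -0.06 became 0.01 without AIL replicate 3, the lowest library. DHRS3, which turns retinal back into retinol, was at 0.21, 0.36 and 0.08 CPM under AIL and at 0.25, 0.21 and 0.36 CPM under DMSO. It stood at 3 to 13 reads in a library, too few to detect a moderate difference, and the ratio of AIL over DMSO from summed reads was 0.789 with an exact 95% interval of 0.438 to 1.41.

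Over the 8 members, 5 were higher under AIL without overlap of the groups, 1 was lower without overlap and 2 overlapped, where 60.1% of all tested genes had groups without overlap. DHRS3 was below the minimum mean of 1 CPM. Of the 7 members that entered the limma fit of all genes, 5 met the threshold of an adjusted p under 0.05, all higher, where 28.2% of the 11069 tested genes were called higher and 25.9% lower. The members were picked with this contrast known, so nothing is read from that count. AIL replicate 3 was the lowest of the AIL libraries for DHRS2, DHRS1, DHRS3, DHRS4 and DHRS13. Without it, the log2 difference was 2.18 for DHRS2, 0.57 for DHRS13, 0.41 for DHRS4, 0.19 for DHRS7, 0.15 for DHRS7B, 0.01 for DHRS1 and -0.14 for DHRS11.

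The wider superfamily did not move in 1 direction with DHRS2. In a list of 65 further short-chain dehydrogenase genes, 52 were in the table and 44 were tested. Of these, 9 rose and 9 fell (limma adjusted p under 0.05), and 26 did not pass, where 54.1% of all tested genes were called. The median log2 difference was -0.0016 for the list and 0.0083 for all tested genes, and the tested relatives ranged over -0.55 to 0.45, well inside the 2.15 of DHRS2.

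NSDHL and HSD17B7 fell most among the relatives. NSDHL, a decarboxylating enzyme of cholesterol synthesis, was at 22.63, 24.22 and 23.31 CPM under AIL and at 33.89, 34.72 and 35.30 CPM under DMSO (log2 difference -0.55, SE 0.0434, limma adjusted p = 1.58e-08). HSD17B7, the ketoreductase that works beside it, was at 15.56, 15.45 and 15.07 CPM under AIL and at 22.46, 24.18 and 22.24 CPM under DMSO (log2 difference -0.55, SE 0.0508, limma adjusted p = 9.73e-08). The groups were far apart for both, though 13.6% of the HSD17B7 words also occur in the pseudogene HSD17B7P2. UXS1, which makes UDP-xylose for proteoglycans, was lower by 22.2% in its means (limma adjusted p = 6.07e-07). FAR1, a peroxisomal fatty acyl reductase, and HSD17B4, an enzyme of peroxisomal fatty acid oxidation, each fell by 19.2% in their means (limma adjusted p = 2.10e-07 for FAR1 and 9.79e-08 for HSD17B4). HSD17B12, a ketoreductase of fatty acid elongation, fell by 7.3%.

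Those that rose were of mixed function. QDPR, which regenerates tetrahydrobiopterin, was at 6.75, 6.97 and 7.80 CPM under AIL and at 4.79, 4.84 and 5.64 CPM under DMSO (log2 difference 0.43, SE 0.0793, limma adjusted p = 2.18e-04). DHRS12, the DHRS gene outside the members with the largest difference, was at 2.08, 2.18 and 1.98 CPM under AIL and at 1.14, 1.18 and 1.45 CPM under DMSO (log2 difference 0.45, SE 0.0981, limma adjusted p = 8.79e-04). BLVRB, a reductase of biliverdin and flavins, was 30.7% higher and HTATIP2, a metastasis suppressor also called TIP30, 24.4% higher (limma adjusted p = 3.84e-05 for BLVRB and 1.61e-05 for HTATIP2). TSTA3, an enzyme of GDP-fucose synthesis, was 13.1% higher (limma adjusted p = 0.00115). No AIL library overlapped a DMSO library for these 5 genes.

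**Figure D3:**
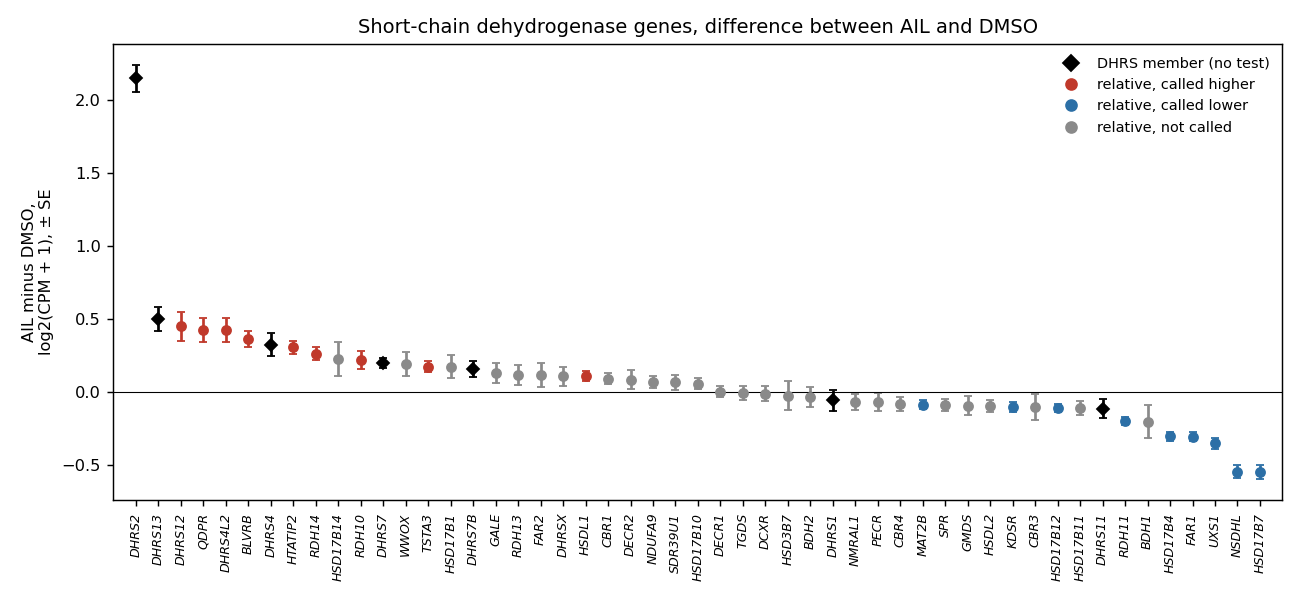
AIL less DMSO difference in mean log2(CPM + 1) with its standard error for the 7 tested members (black diamonds) and the 44 tested relatives (circles coloured by the limma call), in falling order. DHRS2 stands at 2.15, and the relatives lie between -0.55 and 0.45.

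DHRS3, DHRS4 and DHRS7 handle retinal, so the retinoid pathway was counted as a list. Of 24 genes, 12 were in the table and 9 were tested, of which 4 rose and 2 fell, where 28.2% of all tested genes rose and 25.9% fell. The median log2 difference of the list was 0.07. The retinol and retinal enzymes went both ways. RDH14 was at 22.79, 23.22 and 23.25 CPM under AIL and at 19.08, 18.89 and 19.23 CPM under DMSO (log2 difference 0.26, limma adjusted p = 1.09e-04). RDH11 was at 112.33, 110.92 and 113.03 CPM under AIL and at 129.21, 127.10 and 130.04 CPM under DMSO (log2 difference -0.20, limma adjusted p = 9.45e-06). The groups were separate for both genes, in opposite directions. RARA, a nuclear receptor for retinoic acid, was 44.5% higher (limma adjusted p = 3.48e-05), and ALDH1A3, which makes retinoic acid from retinal, was 8.4% higher (limma adjusted p = 0.00181), with 24.3% of its words in other genes.

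DHRS2 and DHRS4 reduce reactive carbonyls, a task shared with enzymes of other families. Of 24 such genes, 20 were in the table and 16 were tested, and 4 rose and 0 fell by limma, where 28.2% of all tested genes rose and 25.9% fell. At an unadjusted limma p under 0.05, 6 rose and 0 fell. The share of all tested genes at that threshold was not counted, so nothing is read from this looser count. At the same threshold 12 of the 44 tested short-chain dehydrogenase relatives rose and 12 fell. The median log2 difference was 0.03. NQO1, a quinone reductase, was at 469.83, 452.32 and 462.58 CPM under AIL and at 316.80, 323.39 and 319.61 CPM under DMSO (log2 difference 0.53, SE 0.0246, limma adjusted p = 3.11e-11). GLO1, the glyoxalase that clears methylglyoxal, was 10.4% higher (limma adjusted p = 4.45e-04). HAGHL, related to the glyoxalase partner HAGH, was at 2.08, 2.85 and 2.26 CPM under AIL and at 1.14, 1.15 and 1.40 CPM under DMSO (log2 difference 0.60, limma adjusted p = 1.25e-04), with 28.2% of its words opposite CIAO3. PTGR1, a reductase of prostaglandins and alkenals, was 7.03% higher (limma adjusted p = 0.0164), and this did not pass without AIL replicate 1 (adjusted p = 0.0638) or without DMSO replicate 1 (adjusted p = 0.0648). With quantile normalization 6 genes of the list rose and 1 fell.

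DHRS7B belongs to ether lipid synthesis, and the other genes of that route mostly did not follow it. The list also held PEX5, PEX7, PEX19 and PHYH, peroxisomal genes that are not enzymes of this route. All 12 genes of the list were tested, with 5 lower, 1 higher and a median log2 difference of -0.06, where 25.9% of all genes fell. The 1 higher was PHYH (log2 difference 0.35, limma adjusted p = 2.41e-04). Besides FAR1, which supplies the fatty alcohol, TMEM189, the plasmanylethanolamine desaturase, was at 23.15, 21.84 and 22.47 CPM under AIL and at 27.56, 30.06 and 26.18 CPM under DMSO (log2 difference -0.30, SE 0.0518, limma adjusted p = 1.06e-04). EPT1, the ethanolamine phosphotransferase also called SELENOI, and CHPT1, a choline phosphotransferase, fell by 17.0% and 13.1% in their means (limma adjusted p = 5.27e-06 for EPT1 and 1.44e-04 for CHPT1). The groups did not overlap for these 4 lower genes.

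DHRS2, DHRS4 and DHRS1 lie in this order in 1 gene-dense stretch of chromosome 14, and DHRS7 is on the same chromosome. Genes around DHRS2, DHRS4 and DHRS1 were therefore counted as a list, and the neighbours of DHRS7 were not followed. Separately, gene order in RefSeq on GRCh38.p14 was used to place genes along the stretch and to find those next to DHRS2, DHRS4 and DHRS1. Of 37 listed neighbours, 27 were in the table and 22 were tested, with 11 higher, 3 lower and a median log2 difference of 0.15, where 28.2% of all genes rose and 25.9% fell. None came near DHRS2, as the neighbours ranged over -0.15 to 0.44. AP1G2, a clathrin adaptor subunit and the nearest tested gene on one side of DHRS2, was at 25.52, 26.40 and 24.28 CPM under AIL and at 23.57, 22.52 and 21.54 CPM under DMSO (log2 difference 0.17, SE 0.0494, limma adjusted p = 0.00919). On the other side the next gene in the table was DHRS4.

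The largest neighbour difference was that of CHMP4A, an ESCRT subunit, at 26.73, 25.52 and 24.48 CPM under AIL and 18.47, 18.55 and 18.89 CPM under DMSO (log2 difference 0.44, limma adjusted p = 7.82e-07). NEDD8, a ubiquitin-like modifier, was 15.5% higher (limma adjusted p = 8.21e-06) and IPO4, a nuclear import receptor, 16.4% higher (limma adjusted p = 1.59e-04). Annotated genes overlap here, and 61.4% of the CHMP4A words and 58.4% of the IPO4 words occur in another one. NOP9, the gene in the table next to DHRS1, fell by 9.55% (limma adjusted p = 0.00118) while DHRS1 overlapped between the groups. Of the NOP9 words, 27.2% lay opposite CIDEB.

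**Figure D4:**
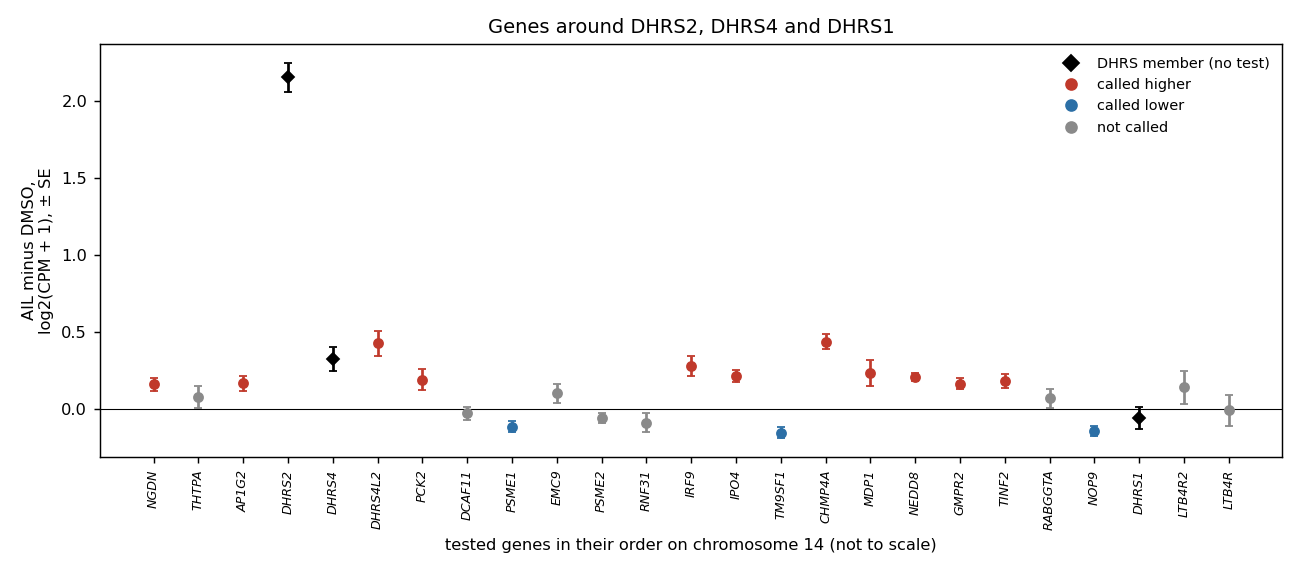
AIL less DMSO difference in mean log2(CPM + 1) with its standard error for tested genes in their order on chromosome 14, not to scale, with members as black diamonds and other genes coloured by the limma call. DHRS2 stands at 2.15, and the other genes lie between -0.15 and 0.44.

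Genes with a profile like that of DHRS2 were sought among 10987 tested genes, with members and clone or locus names left out. The measure was the Euclidean distance over the 6 libraries of log2(CPM + 1) minus the DMSO mean of the gene. The 10 nearest were MMP3, KRTAP2-3, PSG4, OSGIN1, CD68, ADM, UAP1L1, LURAP1L, GOLT1A and ZNF329, at distances of 1.63 to 2.11, where the median over all candidates was 3.72. A gene without any difference or spread would lie 3.73 away. The order of the 10 follows the size of their rise. They are described without a test because likeness to DHRS2 chose them. MMP3, a matrix metalloproteinase and the nearest, was at 42.21, 41.50 and 45.75 CPM under AIL and at 19.14, 16.41 and 17.64 CPM under DMSO, a log2 difference of 1.24. GOLT1A, a Golgi transport gene, resembled DHRS2 in its low solvent level, with 2.26, 2.27 and 2.62 CPM under AIL and 0.77, 0.79 and 0.56 CPM under DMSO. CD68, a lysosomal glycoprotein, was at 3.10, 3.26 and 2.48 CPM under AIL and at 0.77, 0.79 and 0.73 CPM under DMSO, but 78.2% of its words occur in other annotated genes. All 10 were at most 1.24 higher on the log2 scale, so none matched the size of the DHRS2 difference. Of the 8 with an upstream window in RefSeq, 3 (KRTAP2-3, ADM and LURAP1L) held TATAAA, where 10.8% of all windows do. CpG dinucleotides ran from 1 in the CD68 window to 20 in that of ZNF329, against 0 for DHRS2 and a median of 11 over all windows. Nothing is read from these counts.

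**Figure D5:**
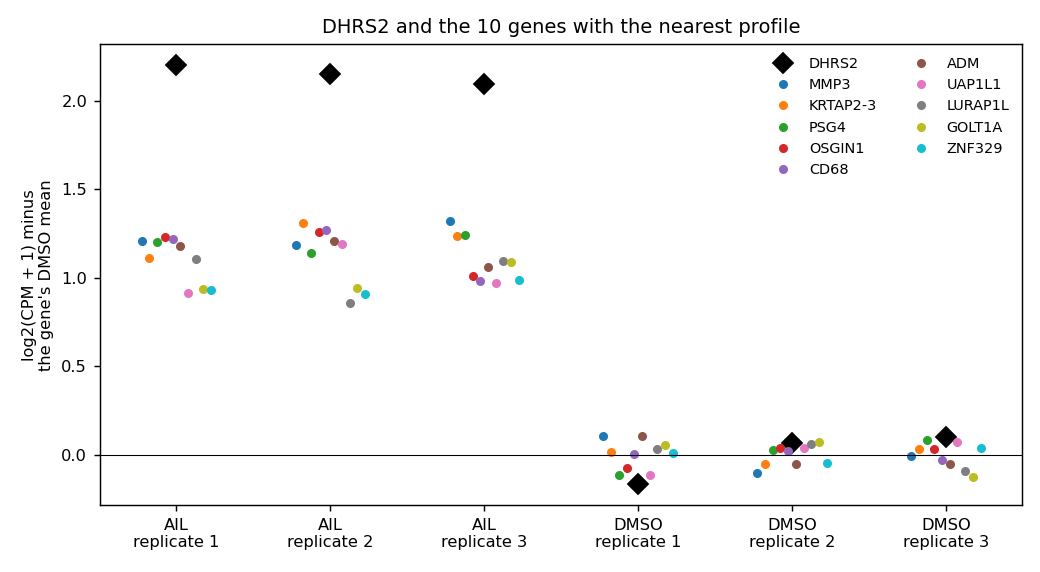
Level of DHRS2 (black diamonds) and of the 10 genes with the nearest profile (coloured circles) in each library, as log2(CPM + 1) minus the DMSO mean of the gene. In AIL libraries DHRS2 lies above 2 and the other genes lie at about 0.9 to 1.3.

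Because the DHRS2 protein was reported to bind MDM2, the levels of MDM2 and 2 genes tied to it were read. MDM2 was at 158.85, 158.25 and 159.43 CPM under AIL and at 155.60, 151.62 and 156.97 CPM under DMSO, and did not pass (log2 difference 0.04, limma adjusted p = 0.238, and 0.0371 with quantile normalization). CDKN1A, which encodes the cell cycle inhibitor p21, was at 32.46, 32.95 and 30.30 CPM under AIL and at 33.55, 32.84 and 32.32 CPM under DMSO, with overlapping groups (limma adjusted p = 0.409). MDM4, a relative of MDM2, did not pass either (limma adjusted p = 0.454).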

How the data were processed

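The authors deposited 1 table of TMM-normalized counts per 1e6 reads (CPM) with 2 decimals, per the file name, for 6 libraries. RSEM and edgeR 3.8.5 are named without a role, per the submitters' processing notes. Aligner, genome build, gene annotation and strand setting: not given in the sources used here. Depth was read from the step of 1 read, 0.0263 to 0.0307 CPM. Below 2000 reads, at least 99.9% of values came out whole with a tolerance of 0.2 reads, but 52.4 to 65.1% at 0.1 reads. The planned count tests were not run on that ground, although 0.1 reads is finer than the 2 decimals allow. Read numbers only describe the members.

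Genes averaging 1 CPM or more were tested on log2(CPM + 1) with limma 3.58.1 (R 4.3.3), with an intensity trend and without covariates, and Benjamini-Hochberg adjustment over 11069 genes. The fit was tested on simulated data. Members and lists were chosen with earlier results of these data known. Named were the members, up to 14 called relatives and up to 4 called genes of each other list by smallest p, the 10 nearest profiles, the MDM2 list and genes next to members. Some results of the marker and MDM2 lists are not reported here. AP1G2 and PHYH, whose shared words were not counted, and CD68 and GOLT1A among the nearest, were picked for description after their values were seen. Same-numbered replicates deviated together (correlations of 0.129 to 0.159), and a replicate block was fitted as an alternative. Shared 50-base words were counted in GENCODE 29 transcripts, on either strand, for all 54 named genes; the read length is not known here.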

Additional observations from a re-analysis of the deposited data

How the results depend on the processing

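The 14 alternatives were pseudocounts of 0.1 and 5, no minimum and a minimum of 5 CPM, quantile normalization, median-of-ratios scaling, no intensity trend, the replicate block, and leaving out each replicate. Tests on recovered reads with other tools were not run, because too few values came out whole with a tolerance of 0.1 reads. That tolerance is finer than the 2 decimals of the values allow, and at least 99.9% came out whole with 0.2 reads. The count of called genes over all tested stayed within 1.5 times of 5991, at 5304 to 6197 without a replicate and 6468 with the replicate block. The 18 called relatives became 17 to 24 without a replicate, 21 with either other scaling, and 25 with the replicate block (13 higher, 12 lower). The block changed no list count by more than 1.5 times. The list of carbonyl detoxification had 7 calls with quantile normalization against 4 before, and the cause was not tested. It had 3 to 6 without a replicate. The 5 called members were 4 without AIL replicate 1, DMSO replicate 1 or DMSO replicate 3, and with a minimum of 5 CPM, which DHRS2 did not pass, and with quantile normalization 4 were higher and 1 lower. Among other named genes no log2 difference reversed. Under the alternatives 622 of their values kept the call, 13 lost it, PTGR1 among them, and 1 gained it, for MDM2. The depth limits DHRS3, at 3 to 13 reads.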
